A study of Mus musculus with 11 samples.

Results

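This section describes genes of epithelial calcium and phosphate uptake in the rectal mucosa of 11 mice, measured on Affymetrix Mouse Gene 1.0 ST arrays with 1 array per animal. The genes were taken by symbol from the platform annotation: Trpv6, S100g, Atp2b1, Slc34a2, Vdr and Cyp24a1 were named. Of these 6 genes 5 were found among the 19938 genes measured, each read by 1 transcript cluster. Cyp24a1, which encodes the enzyme that inactivates vitamin D, was not analysed here. The list was drawn up with earlier results of these arrays known, and it was selected on the log2 levels in mutant tamoxifen and control tamoxifen, where S100g, Trpv6 and Slc34a2 had stood among the largest decreases. For that comparison the members' values are therefore given as a description, without p-values.

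The mutant mice belong to the α6ΔIEC-TAM line, in which tamoxifen is meant to remove Itga6 from intestinal epithelial cells. Itga6 encodes integrin α6, a laminin receptor of epithelial cells. Tamoxifen was given to 4 mutants and NaCl in its place to another 4, while the 3 controls, labelled wild type, all received tamoxifen. Gavage with 10 mg tamoxifen per day took place on alternate days within a span of 5 days and began at 8 weeks of age. Tissue was taken 15 days after gavage began, when the animals were 10 weeks old. In each mutant group 1 animal was male, and in the control group 2 were. The promoter that drives the recombinase is not given in the sources used here. Mutant NaCl differs from control tamoxifen in both genotype and drug, which cannot be told apart in that comparison.

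Absorptive cells move calcium from the lumen to the blood in steps. Trpv6 encodes the apical channel through which calcium enters, S100g encodes calbindin-D9k, which binds calcium in the cytosol and carries it across the cell, and Atp2b1 encodes the plasma membrane pump PMCA1, which expels it on the basal side. Slc34a2 encodes NaPi-IIb, the sodium-phosphate cotransporter of the apical membrane. Vdr encodes the vitamin D receptor, which binds DNA with a retinoid X receptor and raises transcription of Trpv6 and S100g in the intestine.

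Values are on the log2 scale, so a difference of 1 is a doubling of signal. Array medians over all transcript clusters were 7.295 to 7.35. Itga6, the targeted gene, went against the label and averaged 11.82 ± 0.0782 in the arrays labelled mutant tamoxifen (SD, n = 4), 11.41 ± 0.0937 in mutant NaCl (SD, n = 4) and 11.39 ± 0.204 in control tamoxifen (SD, n = 3). It was higher in mutant tamoxifen than in control tamoxifen (limma, difference 0.42, adjusted p = 0.0095) and than in mutant NaCl (0.41, adjusted p = 0.0053), in all arrays. The sources do not say whether the probes of Itga6 sit inside the removed sequence, so its level checks no label, and every direction below follows the labels. As a check of the tissue, the 11 pan-epithelial markers had a mean level of 12.55 to 12.59 in the arrays labelled mutant tamoxifen, 12.46 to 12.50 in mutant NaCl and 12.44 to 12.51 in control tamoxifen. Whole mucosa was measured, so fewer cells of a type and less RNA per cell cannot be told apart.

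The promoters of the members whose levels lay furthest apart, and of the receptor gene, are shown because vitamin D acts on transcription through DNA near its target genes. Each sequence is the 250 bases before the annotated start, 5′ to 3′ on the gene's strand, from RefSeq on the mouse build GRCm38.p6. Capitals mark AGGTCA, the consensus half-site of nuclear receptors, on either strand. The S100g window lies at chrX:162964600-162964849 on the minus strand, the Trpv6 window at chr6:41636406-41636655 on the minus strand, the Slc34a2 window at chr5:53049103-53049352 on the plus strand and the Vdr window at chr15:97908297-97908546 on the minus strand.
S100g: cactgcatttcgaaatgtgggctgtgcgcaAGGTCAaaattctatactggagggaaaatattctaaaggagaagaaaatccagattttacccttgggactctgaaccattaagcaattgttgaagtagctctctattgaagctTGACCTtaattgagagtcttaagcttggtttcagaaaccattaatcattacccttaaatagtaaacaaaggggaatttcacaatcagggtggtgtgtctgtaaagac
Trpv6: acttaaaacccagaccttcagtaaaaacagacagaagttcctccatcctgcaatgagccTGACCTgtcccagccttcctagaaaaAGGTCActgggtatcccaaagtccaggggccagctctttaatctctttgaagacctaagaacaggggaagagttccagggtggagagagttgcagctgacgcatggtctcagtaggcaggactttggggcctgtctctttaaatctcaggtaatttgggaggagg
Slc34a2: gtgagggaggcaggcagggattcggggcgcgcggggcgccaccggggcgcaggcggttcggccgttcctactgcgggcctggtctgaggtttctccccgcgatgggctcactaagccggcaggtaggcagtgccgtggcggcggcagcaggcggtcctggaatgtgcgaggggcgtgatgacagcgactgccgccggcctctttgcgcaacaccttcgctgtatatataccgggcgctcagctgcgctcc
Vdr: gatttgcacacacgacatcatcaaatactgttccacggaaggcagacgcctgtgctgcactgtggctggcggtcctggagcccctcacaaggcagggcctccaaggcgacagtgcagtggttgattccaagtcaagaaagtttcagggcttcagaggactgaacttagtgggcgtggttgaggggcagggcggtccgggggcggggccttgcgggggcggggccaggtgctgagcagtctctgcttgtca

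AGGTCA was found 2 times in the S100g window and 2 times in the Trpv6 window, once on each strand in both. It was not found in the windows of Slc34a2 and Vdr or in the 2 annotated windows of Atp2b1. Of all 32851 mouse promoter windows of this length 14% held it. The direct repeat DR3 that the vitamin D receptor binds, paired half-sites on 1 strand whose words include the half-site above, was searched on both strands by its common variants. No member's window held it, and 0.222% of all windows did. The word TATAAA, bound by TATA-binding protein, was in 12.4% of all windows. The Cdx word TTTATG was in 10.8% and the GATA factor word AGATAA in 9.99%, and none of these words was in a member's window. The S100g window was 38.4% G or C, that of Trpv6 49.6%, Vdr 61.2% and Slc34a2 69.6%, and the Atp2b1 windows 78.4% and 80.8%. The median over all windows was 52.4%.

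Trpv6, the entry channel, measured 7.91, 8.13, 6.89 and 6.90 in the arrays labelled mutant tamoxifen, 8.79, 8.76, 8.81 and 8.58 in mutant NaCl, and 9.48, 10.33 and 8.61 in control tamoxifen. All 4 mutant tamoxifen arrays lay below the arrays of the other groups. Mutant NaCl overlapped control tamoxifen, whose lowest array fell among the NaCl values and whose highest stood well above them. With the sexes adjusted, Trpv6 was lower in mutant tamoxifen than in control tamoxifen by a log2 difference of -2.32 (SE 0.324, 4.99-fold). The control arrays differed among themselves by as much as 1.72.

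S100g, the cytosolic calcium carrier, separated the groups without overlap. The arrays read 8.06, 8.41, 7.33 and 7.29 in those labelled mutant tamoxifen, 9.74, 9.67, 9.77 and 9.24 in mutant NaCl, and 11.15, 11.54 and 11.32 in control tamoxifen. The mutant NaCl arrays thus formed a band between the other groups. Mutant tamoxifen lay below control tamoxifen by -3.76 on the log2 scale (SE 0.214, 13.5-fold), which ranks 2 by size among the 19938 genes. The difference was -3.62 in female arrays alone, where the control group is 1 animal.

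Atp2b1, the basal exit pump, moved far less than the channel and the carrier. The arrays read 11.66, 11.95, 11.95 and 12.00 in those labelled mutant tamoxifen, 11.98, 11.86, 12.00 and 12.04 in mutant NaCl, and 12.33, 12.22 and 12.14 in control tamoxifen. Both mutant groups lay below all control arrays and overlapped each other. The difference of mutant tamoxifen from control tamoxifen was -0.31 (SE 0.0847, 1.24-fold).

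Slc34a2, the phosphate carrier, measured 8.99, 8.78, 7.20 and 8.11 in the arrays labelled mutant tamoxifen, 8.56, 8.88, 8.71 and 8.83 in mutant NaCl, and 10.81, 10.37 and 10.43 in control tamoxifen. Every mutant array, with or without tamoxifen, was below every control array. Among the mutant tamoxifen arrays 1 was above all NaCl arrays and 2 were below all of them. Mutant tamoxifen lay below control tamoxifen by -2.42 (SE 0.34, 5.36-fold).

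Vdr, the receptor, had the same order of group means as the other members, with steps of other sizes. The arrays read 11.72, 11.44, 11.50 and 11.06 in those labelled mutant tamoxifen, 12.55, 12.45, 12.36 and 12.49 in mutant NaCl, and 12.75, 12.59 and 12.65 in control tamoxifen. The tamoxifen-treated mutants stood apart from both other groups, which lay close together without overlapping. The difference of mutant tamoxifen from control tamoxifen was -1.20 (SE 0.128, 2.3-fold). All 5 members were past the threshold in this comparison (limma, adjusted p under 0.05), where 24.6% of all genes passed, 12.9% higher and 11.8% lower. Nothing is read from that count, since the members were chosen with this comparison known.

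**Figure D1:**
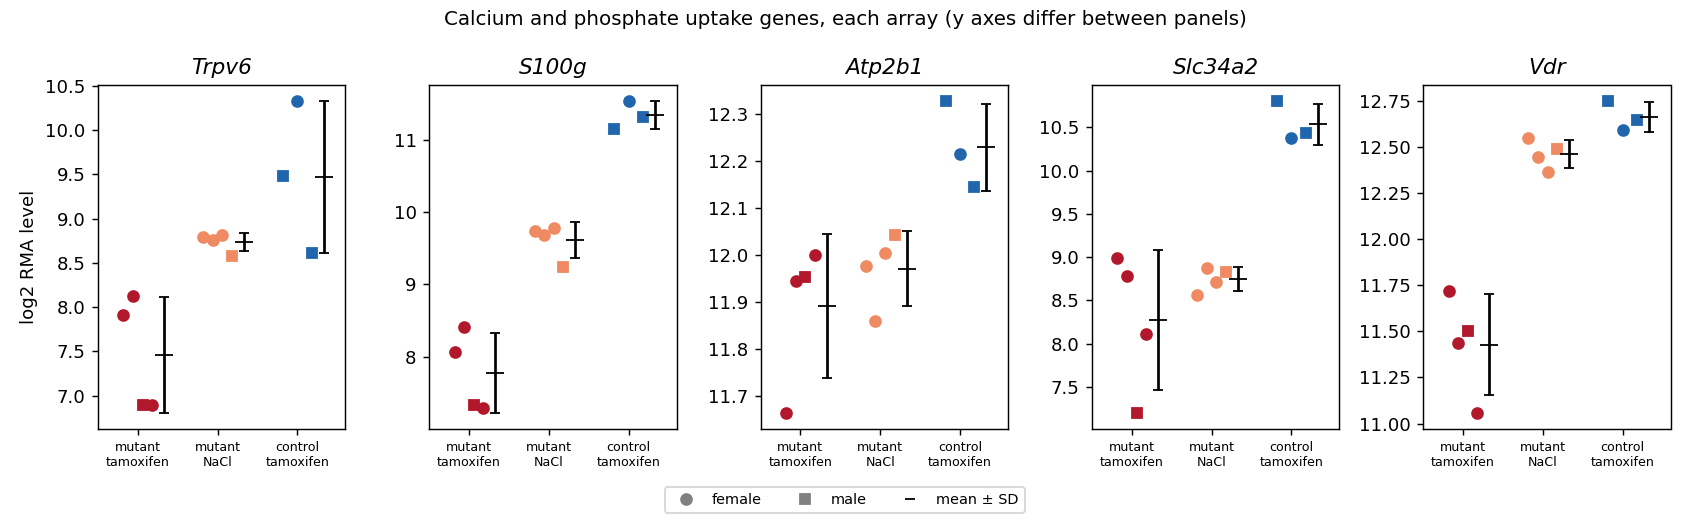
Level of each member (y axis, log2 RMA value) in each array of the mutant tamoxifen, mutant NaCl and control tamoxifen groups, with circles for females, squares for males and bars for the group mean ± SD. S100g separates the 3 groups, Slc34a2 sets both mutant groups (7.20 to 8.99) below control tamoxifen (10.37 to 10.81), and Vdr sets mutant tamoxifen (11.06 to 11.72) below both others (12.36 to 12.75).

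The comparison of the mutant groups sets tamoxifen against NaCl in animals of the same genotype. Tamoxifen is also meant to remove Itga6 in these animals, and no wild type group received NaCl. The drug itself and the removal of Itga6 therefore cannot be told apart here. The comparison shares the mutant tamoxifen arrays with the one through which S100g, Trpv6 and Slc34a2 were picked. Its p-values are therefore not independent of that choice. S100g, Trpv6 and Vdr fell, and Slc34a2 and Atp2b1 did not pass the test. S100g averaged 7.77 ± 0.553 in mutant tamoxifen and 9.61 ± 0.248 in mutant NaCl (SD, n = 4 each), a log2 difference of -1.83 (limma, SE 0.186, 3.57-fold, adjusted p = 0.000142). Trpv6 averaged 7.46 ± 0.654 in mutant tamoxifen and 8.74 ± 0.107 in mutant NaCl (SD, n = 4 each), a difference of -1.28 (limma, SE 0.281, 2.42-fold, adjusted p = 0.00846). Vdr averaged 11.43 ± 0.275 in mutant tamoxifen and 12.46 ± 0.0783 in mutant NaCl (SD, n = 4 each), a difference of -1.03 (limma, SE 0.111, 2.05-fold, adjusted p = 0.000189). For each of these 3 genes all mutant tamoxifen arrays were below all mutant NaCl arrays. The share of all genes that separate these groups in this way was not counted, so nothing is read from that. By limma 10.7% of all genes were called lower in this comparison and 23.2% in either direction.

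Slc34a2 averaged 8.27 ± 0.809 in mutant tamoxifen and 8.75 ± 0.14 in mutant NaCl (SD, n = 4 each). The difference of -0.47 was within the spread of the mutant tamoxifen arrays (limma, 95% interval -1.13 to 0.18, adjusted p = 0.296), and 1 array set most of it: without mutant tamoxifen replicate 3 it was -0.07. Atp2b1 averaged 11.89 ± 0.154 in mutant tamoxifen and 11.97 ± 0.0796 in mutant NaCl (SD, n = 4 each), with a difference of -0.08 (limma, 95% interval -0.24 to 0.08, adjusted p = 0.497). Intervals of these widths do not show that the pump or the phosphate carrier was the same in both groups.

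The comparison of mutant NaCl with control tamoxifen holds mutant animals that received no tamoxifen. It uses the same 3 control arrays on which the members were selected, so its p-values, in every fit given for it, are not independent of that choice. Across all 19938 genes limma called 0 in this comparison (0% of genes), while 1622 had an unadjusted p under 0.05. None of the 5 members passed. S100g was closest, with 9.61 ± 0.248 in mutant NaCl (SD, n = 4) and 11.34 ± 0.195 in control tamoxifen (SD, n = 3), a difference of -1.93 (limma, SE 0.214, 3.8-fold, adjusted p = 0.053). Slc34a2 read 8.75 ± 0.14 in mutant NaCl (SD, n = 4) and 10.54 ± 0.238 in control tamoxifen (SD, n = 3), a difference of -1.95 (limma, SE 0.34, 3.86-fold, adjusted p = 0.396). Trpv6 differed by -1.04 (limma, SE 0.324, adjusted p = 0.531), and by -0.67 without control tamoxifen replicate 2 (adjusted p = 0.754). Atp2b1 differed by -0.23 (limma, SE 0.0847, adjusted p = 0.564) and Vdr by -0.17 (limma, SE 0.128, adjusted p = 0.746).

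The mutant tamoxifen arrays enter the spread assumed for all groups, and they varied more in S100g and Slc34a2 than the others did. The part of this spread in the calls was not tested. Fitted on the arrays of mutant NaCl and control tamoxifen alone, 3 genes were called lower, which is 0.015% of those tested. They were S100g (limma, difference -1.90, SE 0.0721, adjusted p = 0.000255), Slc34a2 (difference -1.72, SE 0.122, adjusted p = 0.0122) and Apod, an apolipoprotein gene named here after its value was seen (difference -1.21, SE 0.1, adjusted p = 0.0254). S100g also passed in 5 other settings, among them the fits without mutant tamoxifen replicate 2 (adjusted p = 0.00833) or replicate 4 (adjusted p = 0.000819), and its adjusted p ranged from 0.000255 to 0.352 over all 20. Without mutant tamoxifen replicate 1 or replicate 3 S100g did not pass (limma, adjusted p = 0.0809 and 0.115). Slc34a2 passed in 1 of 20 settings (adjusted p 0.0122 to 0.57). It did not pass without mutant tamoxifen replicate 3 (limma, adjusted p = 0.115).

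The 3 comparisons share arrays, so each member's values are set side by side as a description. For S100g the log2 difference of mutant NaCl from control tamoxifen was 51.2% of that of mutant tamoxifen from control tamoxifen. The same share was 44.9% for Trpv6, 80.5% for Slc34a2, 74.2% for Atp2b1 and 14% for Vdr. These shares rest on differences from control tamoxifen that did not pass in mutant NaCl, and their order can change when 1 array is left out. Without mutant tamoxifen replicate 1 the differences of mutant NaCl and of mutant tamoxifen from control tamoxifen were -0.24 and -0.25 for Atp2b1, and -1.91 and -2.60 for Slc34a2.

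**Figure D2:**
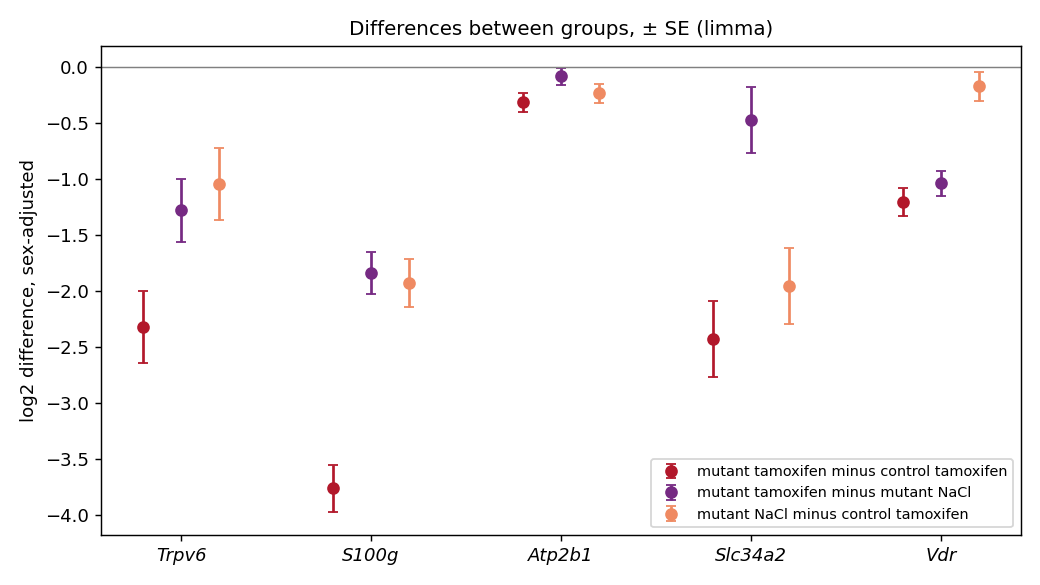
Log2 difference between groups for each member (y axis, sex-adjusted, points ± SE from limma) in the 3 comparisons. S100g shows steps of -1.83 between the mutant groups and -1.93 between mutant NaCl and control tamoxifen, while Vdr shows -1.03 and -0.17.

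The members also varied within groups. In mutant tamoxifen, replicates 3 and 4 had lower levels than replicates 1 and 2 of Trpv6, S100g and Slc34a2, by up to 1.23 for Trpv6, 1.12 for S100g and 1.80 for Slc34a2. The SD of these genes within mutant tamoxifen exceeded that of 99.3%, 99.1% and 99.5% of all genes. In mutant NaCl the same ranges were 0.232, 0.533 and 0.314, and in control tamoxifen 1.717, 0.39 and 0.438. Within control tamoxifen the SD of Trpv6 also exceeded that of 99.3% of all genes, with 89.8% for S100g and 93.2% for Slc34a2. Over the 11 arrays S100g correlated with Trpv6 at r = 0.909, with Vdr at r = 0.899, with Slc34a2 at r = 0.88 and with Atp2b1 at r = 0.689, values that the differences between groups enter. After each group's mean was subtracted, S100g and Trpv6 correlated at r = 0.74, S100g and Slc34a2 at r = 0.601 and Trpv6 and Slc34a2 at r = 0.53 over the 11 arrays. Correlations of such deviations for Atp2b1 with the other members were -0.54 to -0.204. Sex was not removed from the deviations, so differences between males and females enter them. These correlations are descriptions of 11 arrays that were normalised together.

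**Figure D3:**
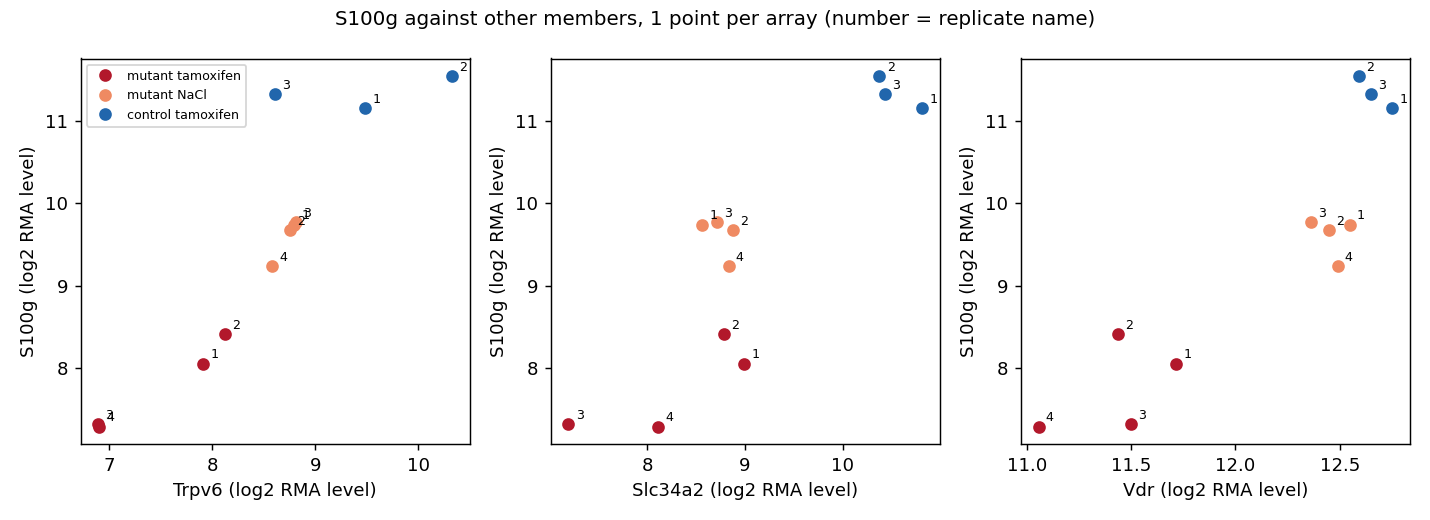
Level of S100g (y axis) against Trpv6, Slc34a2 and Vdr (x axes), all log2 RMA values, with 1 point per array and the replicate name beside it. In mutant tamoxifen, replicates 3 and 4 are lowest for S100g (7.33 and 7.29) and for Trpv6 (6.89 and 6.90), and Slc34a2 of mutant NaCl (8.56 to 8.88) lies within the mutant tamoxifen range (7.20 to 8.99).

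Males made up a larger share of the controls than of the mutants, and S100g and Trpv6 are known to respond to oestrogen in other tissues. The sex term of the fit, male minus female, was -0.47 for S100g (limma, SE 0.178, adjusted p = 0.72) and -0.73 for Trpv6 (limma, SE 0.27, adjusted p = 0.713). It was -0.38 for Slc34a2, 0.07 for Atp2b1 and 0.08 for Vdr. None of the 5 passed, while 0.0351% of all genes did, and 0.0201% of all genes were lower in males. Within female arrays alone the differences of mutant tamoxifen from mutant NaCl were -1.81 for S100g (limma, adjusted p = 0.00316), -1.14 for Trpv6 (adjusted p = 0.0299) and -1.05 for Vdr (adjusted p = 0.00364), and -0.09 for Slc34a2 (adjusted p = 0.829).

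Among 29 further genes of calcium passage, 3 rose and 5 fell in mutant tamoxifen against control tamoxifen (limma), a share near the 24.6% of all genes that passed, with a median log2 difference of -0.04 beside -0.02 over all genes. Anxa2 rose (difference 0.48, adjusted p = 0.00121), as did S100a10 (difference 0.21, adjusted p = 0.0347), and their proteins form a complex that brings Trpv6 to the plasma membrane. Atp2a2, the calcium pump of the endoplasmic reticulum, rose as well (difference 0.20, adjusted p = 0.00728). Calb2, the calcium-binding protein calretinin of enteric neurons, fell (difference -0.84, adjusted p = 0.00148), as did the sodium-calcium exchanger genes Slc24a3 (-0.53, adjusted p = 0.00574), Slc24a2 (-0.26, adjusted p = 0.0077) and Slc8a1 (-0.31, adjusted p = 0.045) and the voltage-gated channel gene Cacna1c (-0.48, adjusted p = 0.0131). Slc24a2 read only 5.41 in mutant tamoxifen and 5.69 in control tamoxifen, below the array medians. Slc8a1 and Cacna1c are also expressed in smooth muscle, of whose 10 markers all fell in the same comparison (median -0.49). Of 8 enteric neuron and glia markers 3 fell, beside 11.8% of all genes called lower. The part of muscle and nerve in these values was not tested. Against mutant NaCl 4 of the 29 rose and 3 fell, and in mutant NaCl against control tamoxifen 0 passed.

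Several measured relatives of the members did not pass the test in mutant tamoxifen against control tamoxifen, while some S100 genes and 1 Trpv gene did. Trpv5, the channel most like Trpv6, had mean levels of 6.42 in mutant tamoxifen and 6.47 in control tamoxifen (limma, difference -0.08, adjusted p = 0.327). Calb1, the larger calbindin of the kidney, read 5.05 and 5.10 in these groups (limma, difference -0.04, adjusted p = 0.649). The plasma membrane pump genes Atp2b2 and Atp2b3 differed by -0.14 (adjusted p = 0.145) and -0.07 (adjusted p = 0.376). Trpv5, Calb1 and Atp2b3 (6.75 and 6.83) lay below the array medians of 7.295 to 7.35. Whether they are expressed in this tissue is therefore not shown. Of 15 genes listed with the S100 family 6 rose and 2 fell (median 0.03), beside 24.6% of all genes that passed. S100pbp, which fell (-0.43, adjusted p = 0.0124), encodes a protein that binds an S100 protein and is not itself an S100 gene. Among those that rose was S100a14 (difference 0.87, adjusted p = 0.000113), followed by S100a16 (0.68, adjusted p = 0.0012) and S100a11 (0.54, adjusted p = 0.00141). S100a8 and S100a9, also in that count, are neutrophil genes and are themselves among the 10 neutrophil markers. Of those 10 markers 9 rose in the same arrays (median 0.68), beside 12.9% of all genes called higher. Of the 4 other Trpv genes Trpv3, a channel opened by warmth, fell (8.98 in mutant tamoxifen and 10.22 in control tamoxifen, difference -1.28, adjusted p = 0.000177), also against mutant NaCl (-1.34, adjusted p = 4.31e-05), and the other 3 did not pass.

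Of 14 further phosphate genes 2 rose and 2 fell in mutant tamoxifen against control tamoxifen (limma, median -0.07), a share near the 24.6% of all genes that passed. Slc20a1, the phosphate carrier PiT-1, averaged 11.13 ± 0.0818 in mutant tamoxifen (SD, n = 4), 12.04 ± 0.17 in mutant NaCl (SD, n = 4) and 12.29 ± 0.185 in control tamoxifen (SD, n = 3). It fell against control tamoxifen (difference -1.19, adjusted p = 0.000108) and against mutant NaCl (-0.91, adjusted p = 0.000162). Xpr1, which exports phosphate from cells, fell by 0.64 against control tamoxifen (adjusted p = 0.000212) and by 0.62 against mutant NaCl (adjusted p = 7.9e-05). The phosphatase genes Alpl and Alpi rose (0.90 and 0.83 against control tamoxifen, adjusted p = 0.00504 and 0.0105). Slc34a1 and Slc34a3, the relatives of Slc34a2 that act in the kidney, differed from control tamoxifen by 0.16 (adjusted p = 0.0608) and -0.06 (adjusted p = 0.574).

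Of 16 genes of vitamin D metabolism and receptor partners, 1 rose and 4 fell in mutant tamoxifen against control tamoxifen (limma, median -0.08), a share near the 24.6% of all genes that passed. Rxra, the retinoid X receptor that pairs with the vitamin D receptor, fell (difference -0.32, adjusted p = 0.0079), and so did the coactivator genes Ncoa1 (-0.24, adjusted p = 0.0125) and Ncoa3 (-0.23, adjusted p = 0.00771). Cyp27a1, a hydroxylase of sterols and vitamin D, fell (-0.95, adjusted p = 0.00263). Pdia3, a protein disulphide isomerase, rose (0.21, adjusted p = 0.0138). Cyp27b1, which makes the active hormone, had mean levels of 5.69 in mutant tamoxifen and 5.74 in control tamoxifen and did not pass (limma, difference -0.07, adjusted p = 0.35). Against mutant NaCl 0 rose and 4 fell, the same 4 genes.

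Of 14 other genes reported as vitamin D targets, 2 rose and 6 fell against control tamoxifen (limma, median -0.20), beside 24.6% of all genes that passed in either direction. Abcb1a, the drug efflux pump P-glycoprotein, averaged 10.999 ± 0.14 in mutant tamoxifen (SD, n = 4), 11.77 ± 0.019 in mutant NaCl (SD, n = 4) and 12.19 ± 0.16 in control tamoxifen (SD, n = 3), and the 3 groups did not overlap. It fell against control tamoxifen (-1.16, adjusted p = 3.57e-05) and against mutant NaCl (-0.77, adjusted p = 0.000135). Abcc2, an efflux pump for conjugates, fell in both comparisons (-1.40, adjusted p = 0.000303, and -0.44, adjusted p = 0.0393), and so did Mep1a, a brush border protease (-1.80, adjusted p = 0.000573, and -1.56, adjusted p = 0.000455). Slc37a2, a sugar phosphate exchanger, fell by 2.02 against control tamoxifen (adjusted p = 0.00401). Cd14, a coreceptor for lipopolysaccharide, rose (0.82, adjusted p = 0.000543), as did Lrp5 (0.30, adjusted p = 0.00196). In mutant NaCl against control tamoxifen 0 of the 14 passed.

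**Figure D4:**
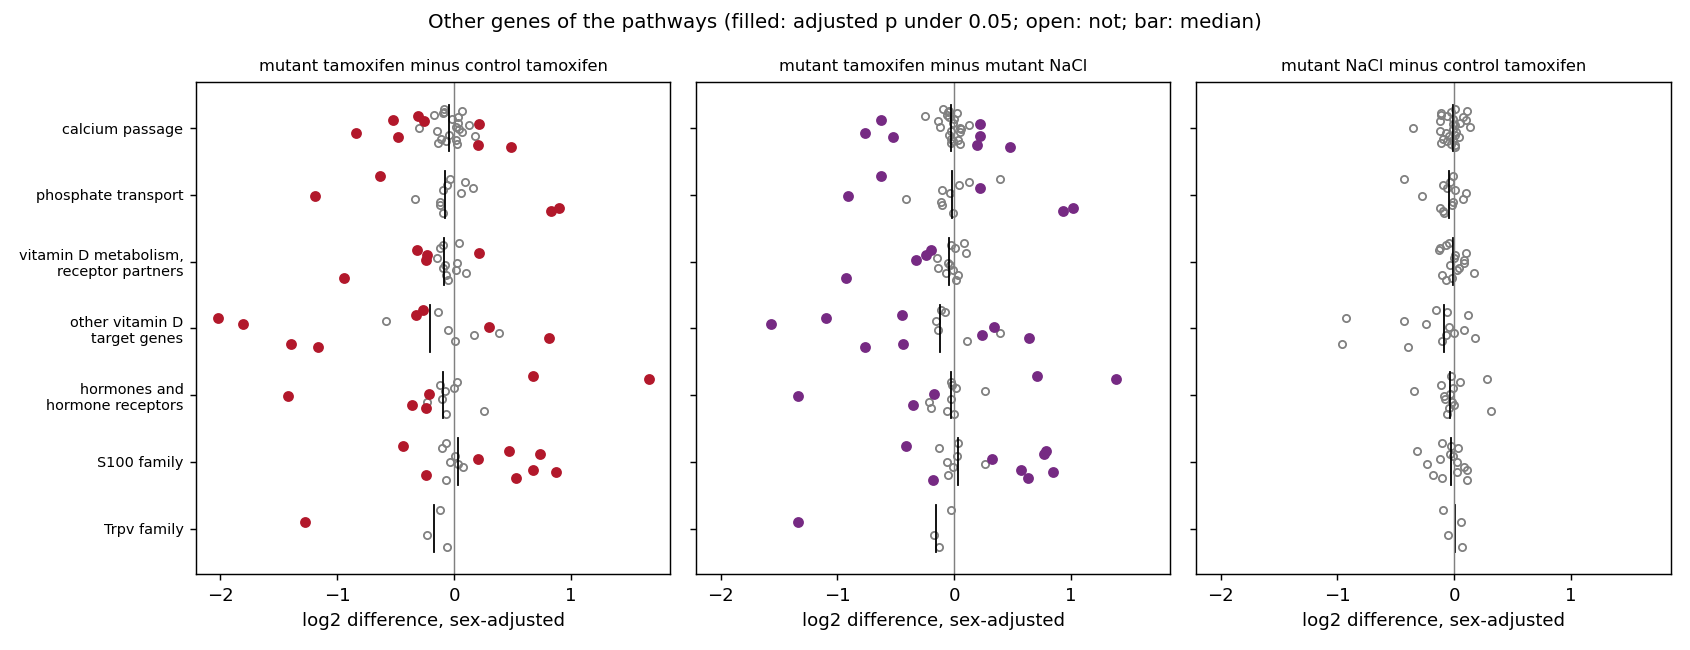
Log2 differences (x axis, sex-adjusted, limma) of the other genes of each list (y axis) in the 3 comparisons, with filled points for adjusted p under 0.05 and a bar at the list's median. Genes past the threshold lie on both sides of 0 in most lists in the comparisons of mutant tamoxifen, and none is past it in mutant NaCl against control tamoxifen.

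Of 14 genes listed with the hormones and hormone receptors of mineral balance, 2 rose and 4 fell against control tamoxifen (limma, median -0.09), beside the same 24.6%. The genes that rose encode the stanniocalcins, hormones known to lower calcium uptake in fish. Stc1 averaged 8.00 ± 0.644 in mutant tamoxifen (SD, n = 4), 6.61 ± 0.116 in mutant NaCl (SD, n = 4) and 6.42 ± 0.0253 in control tamoxifen (SD, n = 3), and rose against control tamoxifen (1.67, adjusted p = 0.00212) and mutant NaCl (1.39, adjusted p = 0.0026). Stc2 rose in both comparisons as well (0.68, adjusted p = 0.00229, and 0.71, adjusted p = 0.000849). Klb, the coreceptor β-Klotho and not itself a gene of mineral balance, fell in both (-1.42, adjusted p = 0.000246, and -1.34, adjusted p = 0.000123). Fgfr1 fell as well (-0.36, adjusted p = 0.0177, and -0.36, adjusted p = 0.00953). Of 12 intestinal transcription factor genes, Hnf4a (-0.25, adjusted p = 0.0011), Hnf4g (-0.59, adjusted p = 0.00284) and Ppara (-0.69, adjusted p = 0.0026) fell against control tamoxifen. Pparg rose (0.59, adjusted p = 0.000212), and 24.6% of all genes passed in that comparison. Against mutant NaCl 2 of the 12 rose and 6 fell, beside 23.2% of all genes that passed.

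Markers of cell types moved in the same arrays. Over all genes 24.6% passed in mutant tamoxifen against control tamoxifen, 12.9% higher and 11.8% lower. Of 26 absorptive colonocyte markers 14 fell and 7 rose in mutant tamoxifen against control tamoxifen (limma, median -0.39), and their mean level was 10.39 to 10.50 in mutant tamoxifen, 10.61 to 10.74 in mutant NaCl and 10.62 to 10.87 in control tamoxifen. All 14 proliferation markers rose (median 0.87), with mean levels of 10.27 to 10.37, 9.73 to 9.95 and 9.09 to 9.75 in mutant tamoxifen, mutant NaCl and control tamoxifen. The list of squamous epithelium markers, the lining of the anal canal, varied widely from array to array. It read 8.25 to 10.17 in mutant tamoxifen, 8.93 to 10.19 in mutant NaCl and 6.59 to 10.28 in control tamoxifen. Of these markers 0 of 14 passed. Their sex term, male minus female, was below 0 for all 14 (limma, median -1.73, range -2.71 to -0.38), and none passed. Male arrays read 8.25 in mutant tamoxifen, 9.27 in mutant NaCl, and 6.59 and 7.80 in control tamoxifen. Female arrays read 8.93 to 10.28. As 2 of 3 controls were male, squamous level, sex and control group go partly together. The part of squamous cells in the members' sex terms was not tested. The part of these cell types and of proliferation in the members' differences was not tested. The colonocyte mean separates mutant tamoxifen from the other groups and holds markers that moved both ways, so it and the group cannot be told apart. With it as a further term the differences of mutant tamoxifen from mutant NaCl were -1.81 for S100g (limma, adjusted p = 0.0118), -1.87 for Trpv6 (adjusted p = 0.0287) and -0.98 for Vdr (adjusted p = 0.0157). On the log2 scale the term moved Trpv6 most, from -1.28 without it. Slc34a2 moved from -0.47 to -0.89 (limma, adjusted p = 0.308) and Atp2b1 from -0.08 to -0.29 (limma, adjusted p = 0.09). Against control tamoxifen Atp2b1 moved from -0.31 to -0.61. With the squamous mean the differences from mutant NaCl were -1.83 for S100g, -1.27 for Trpv6 and -1.03 for Vdr.

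**Figure D5:**
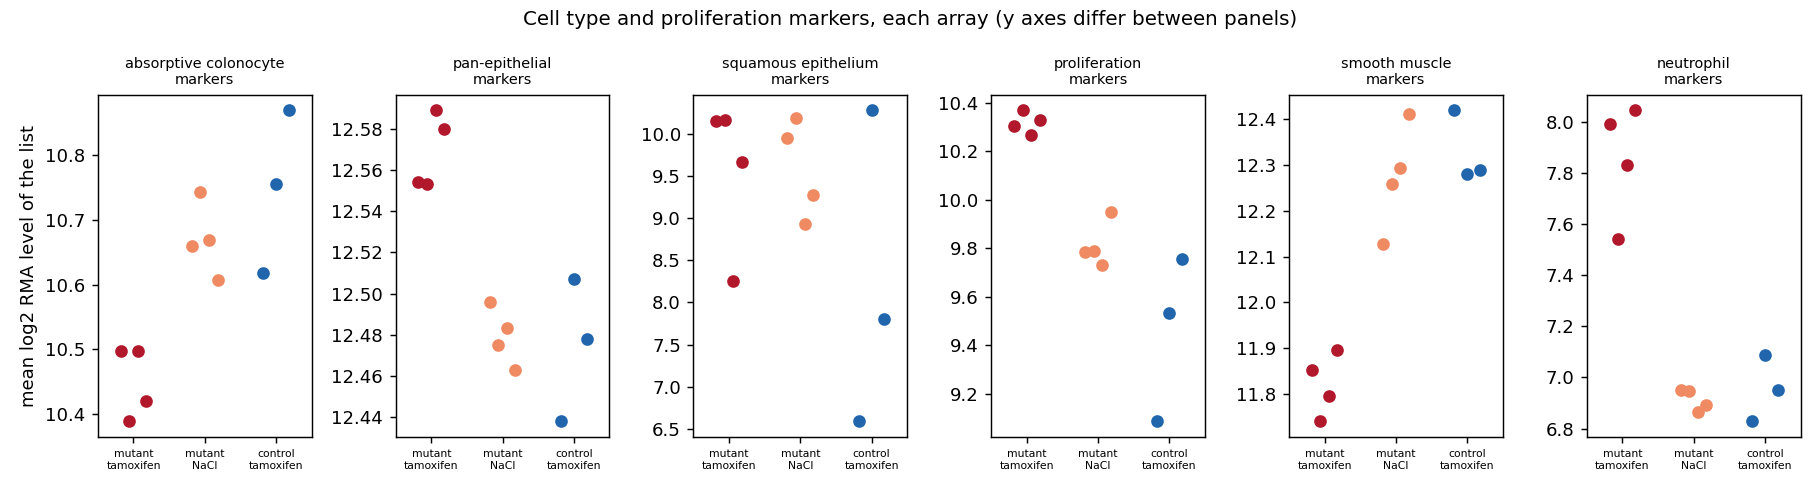
Mean level of each marker list (y axis, log2 RMA value) in each array of the mutant tamoxifen, mutant NaCl and control tamoxifen groups. Absorptive colonocyte markers are lowest in mutant tamoxifen (10.39 to 10.50), proliferation markers highest there (10.27 to 10.37), and squamous markers spread widely within each group.

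The genes whose levels followed each member most closely over the 11 arrays were found by Pearson's r, a likeness that the group differences enter. For S100g they were Fmo5 (r = 0.982), Gm826 (r = 0.981), Cx3cl1 (r = 0.967), Cyp2d9 (r = 0.963) and Ppp2r5c (r = 0.963), and B3gnt3 ran most opposite (r = -0.967). For Trpv6 they were Rarg (r = 0.964), Rnf152 (r = 0.962), Magi1 (r = 0.942), Dgat1 (r = 0.939) and Tas2r108 (r = 0.938), with Ubxn8 most opposite (r = -0.974). For Slc34a2 they were Arvcf (r = 0.943), Ppp1r3b (r = 0.937), D130043K22Rik (r = 0.926), Hmga2 (r = 0.918) and Gm826 (r = 0.911). For Vdr they were Slc15a1 and Smim24 (r = 0.99 each), Slco2a1 (r = 0.989), Dhrs11 and Ambra1 (r = 0.987 each), with Plaa and Btbd3 most opposite (r = -0.99 each). For Atp2b1, with small differences between groups, Znrf4 was closest (r = 0.96). Gm826 is listed for both S100g and Slc34a2, and Gtf3c6 is among the 3 most opposite genes of both S100g (r = -0.964) and Trpv6 (r = -0.973).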

How the data were processed

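Rectal mucosa RNA was measured on Mouse Gene 1.0 ST arrays. The authors deposited log2 values per transcript cluster, made with RMA (background correction, quantile normalisation and probe summary) in Expression Console version 1.1 after Command Console version 2.0, per the labels and the series design text. Partek is named in the submitters' processing notes without its role, and a genome build is not given in the sources used here.

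Of 35556 transcript clusters 21789 had 1 gene symbol in the platform annotation, 1621 had several and 12146 were not listed. Of the single symbols 21766 matched RefSeq's GRCm38.p6 gene table. For 999 genes with several clusters the highest mean was used, giving 19938 genes, with no filter on dim genes. Group and sex terms with a variance trend were fitted to all 11 arrays by limma (3.58.1, under R 4.3.3). Calls needed an adjusted p under 0.05 (two-sided test, Benjamini-Hochberg across the 19938 genes), and the steps were tested on simulated data. The labels name no litters or batches, so a p-value here reflects variation among these mice, and their small number limits precision.

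The members, lists and tests were chosen with earlier results of these data known. Named genes are the members, at most 4 genes per list with the smallest p in mutant tamoxifen against control tamoxifen, and for each member the 5 genes with the highest and up to 3 with the lowest correlation. Further list genes (S100a10, Slc24a2, Slc8a1, Cacna1c, Pdia3, Cyp27b1, Lrp5, Slc37a2, S100a8, S100a9 and the relatives of members) complete a count or family and were chosen after their values were seen. Some listed genes, among them Atp2b4 and Spp1, had no single-symbol cluster and were not analysed here.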

Additional observations from a re-analysis of the deposited data

Results flagged for a closer look

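Among 50 sets of 4 arrays examined, 1 held an array far from the others: Atp2b1 read 11.663 in mutant tamoxifen replicate 1, where its gap to the next array was 0.836 of the group's range, against a critical value of 0.829. Chance marks about 1 in 20 such sets. Without that array the log2 difference of mutant tamoxifen from control tamoxifen was -0.25 and that from mutant NaCl was -0.01.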

How the results depend on the processing

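No paired analysis was possible because the labels give the arrays no replicate numbers shared between groups. The members' differences kept their direction in all 22 settings for mutant tamoxifen against each other group and in all 20 for mutant NaCl against control tamoxifen; the sex term of Slc34a2 ranged from -0.66 to 0.177 when 1 array was left out, and turned to 0.177 without mutant tamoxifen replicate 3. S100g, Trpv6 and Vdr stayed past the threshold in mutant tamoxifen against mutant NaCl in each of the 22. These include the fit with the colonocyte mean, which cannot be told apart from the group. All settings use arrays on which the members were selected, so neither the kept directions nor these passes are independent support. Atp2b1 lost its call in mutant tamoxifen against control tamoxifen in 6 of 22 settings. Among them were the arrays of the groups compared alone and the squamous term. The call was also lost without control tamoxifen replicate 1, replicate 2 or mutant tamoxifen replicate 3. Nothing is read from that call or its loss, since the members were chosen with this comparison known. Genes called in mutant tamoxifen against control tamoxifen numbered 4913, and 1384 in female arrays alone; leaving out 1 array gave 2513 (mutant tamoxifen replicate 3) to 4684, and 3030 without control tamoxifen replicate 2. In mutant NaCl against control tamoxifen, array weights, the lowest 50% of genes left out and a second quantile normalisation gave 1 gene each, the arrays of these groups alone 3, and leaving out 1 array 0 to 3. The sex term called 7 genes, 4 with the lowest 50% of genes left out and 5 to 20 without 1 array. Why these counts moved was not tested, beyond the fewer arrays or genes in some fits. Each member has 1 transcript cluster, so no other cluster could be tried.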
